A study of Homo sapiens with 80 samples.

Results

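The genes described here encode integrin subunits and laminin chains. They were chosen by symbol alone, as symbols that start with ITGA, ITGB, LAMA, LAMB or LAMC and go on with a number, a letter code or L, where a probe was detected (detection p under 0.05) on at least 4 of the 80 arrays. Of 31 such symbols with a probe, 29 passed, out of 12547 genes kept by the same minimum. They were 12 integrin alpha subunits, 7 integrin beta subunits, the integrin beta-like gene ITGBL1, 4 laminin alpha chains, 4 laminin beta chains and 1 laminin gamma chain, LAMC3. ITGA8, detected on 0 arrays, and ITGB6, detected on 3, did not pass, and just inside the minimum were ITGB7 on 4 arrays and LAMB4 and ITGA2B on 7 each.

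RNA levels were measured on 1-colour bead arrays in U2OS, a human osteosarcoma line, with each culture expressing 1 of 5 forms of the glucocorticoid receptor (GR). The variants were GRgamma, a splice form with an added arginine in the DNA-binding domain, A477T, altered in the dimer interface of that domain, 30iiB, altered in the N-terminal activation function, and E773R, altered in the ligand-dependent activation function. They were set against GRalpha, the common form of the receptor. Cells of every allele were grown in DMEM with fetal bovine serum and received 100 nM dexamethasone, a synthetic glucocorticoid, for 2, 4 or 24 h, or ethanol vehicle for 4 h, called 0 h below. Each of the 20 groups had 4 replicates, which the study's design text calls biological without saying more. P-values thus measure only variation among such replicate cultures, with a spread for each gene pooled over all 20 groups. Which promoter drove each allele, and whether a line was 1 clone or a pool, is not stated in the labels. Only the 4 h cultures had a control treated for the same time, so at 24 h hormone and time in culture cannot be told apart.

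Integrins are receptors made of an alpha and a beta subunit that span the membrane, bind proteins of the extracellular matrix and connect them to the actin cytoskeleton through adaptor proteins. Laminins are trimers of an alpha, a beta and a gamma chain and are the main adhesive proteins of basement membranes. Bone-forming cells and their tumours attach to matrix mainly through integrins that contain the beta 1 subunit, which bind collagens, fibronectin and laminins, and glucocorticoids are known to alter matrix and adhesion genes in such cells.

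Promoter sequences are shown for 3 members with large changes at 24 h, LAMB3, which fell, and ITGA1 and LAMA2, which rose. Each is the 250 bases before the transcription start given by RefSeq on GRCh38.p14, written 5′ to 3′ on the gene's strand. LAMB3 was read from the minus strand of chr1:209651375-209651624, ITGA1 from the plus strand of chr5:52787666-52787915 and LAMA2 from the plus strand of chr6:128882888-128883137. Capitals mark a match to TGANTCA, the letters bound by AP-1, a factor whose activity liganded GR is known to repress. LAMB3 has several starts in the promoter table, and the start shown was chosen because its bases hold TGANTCA. The windows of its other starts hold no match, so the match shown follows from that choice.
LAMB3: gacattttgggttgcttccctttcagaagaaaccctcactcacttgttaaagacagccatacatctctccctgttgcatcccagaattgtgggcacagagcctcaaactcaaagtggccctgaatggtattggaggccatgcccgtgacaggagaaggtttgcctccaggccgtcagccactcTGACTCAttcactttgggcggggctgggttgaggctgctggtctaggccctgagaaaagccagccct
ITGA1: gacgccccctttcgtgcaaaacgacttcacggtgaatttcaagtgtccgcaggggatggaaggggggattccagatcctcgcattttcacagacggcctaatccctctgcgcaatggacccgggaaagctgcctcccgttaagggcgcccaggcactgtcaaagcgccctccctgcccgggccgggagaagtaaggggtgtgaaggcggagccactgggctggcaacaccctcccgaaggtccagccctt
LAMA2: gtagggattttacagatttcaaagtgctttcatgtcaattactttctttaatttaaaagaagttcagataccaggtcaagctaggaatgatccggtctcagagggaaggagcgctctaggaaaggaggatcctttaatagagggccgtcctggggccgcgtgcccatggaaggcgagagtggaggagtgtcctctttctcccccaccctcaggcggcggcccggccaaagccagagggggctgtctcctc
The promoter table held 27 windows of 300 bases (250 before and 50 after a start) for 20 of the 29 members. TGANTCA, searched on both strands, lay in 2 of the 27, at bases -67 to -61 from the LAMB3 start printed above and at bases -6 to 1 of ITGA5, and in 7.71% of all 35116 windows of that length. The glucocorticoid response element, searched on both strands as AGAACA and TGTTCT separated by any 3 bases, lay in 0 of the 27 and in 0.00285% of all windows. Its left arm alone, AGAACA, lay in 5 windows of ITGA6, ITGA10 and LAMB3 (for LAMB3, in windows of other start sites) and in 14.8% of all windows. These matches describe letters in the windows, and no binding was measured.

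The arrays had median signals between 82 and 925.75 (median 211.25) and detected 12233 to 17333 probes each. Mean correlation with the other arrays of the group was lowest for E773R at 4 h, replicate 2 (0.902), and 30iiB at 2 h, replicate 3 (0.914), against a median of 0.966, and leaving both out ended none of the 56 calls on members. Of 7 osteosarcoma and mesenchymal markers with a probe, 6 were detected on all 80 arrays and COL1A2 on 16. Markers of other cell types were mixed. Epithelial markers were detected on 71 (EPCAM), 58 (KRT14), 49 (CDH1), 9 (KRT5) and 0 (KRT19) arrays. Endothelial markers were detected on 79 (PECAM1), 67 (VWF), 64 (KDR) and 0 (CDH5) arrays. Among blood markers, CD79A was detected on 45 arrays, PTPRC on 18, CD14 on 16, HBB on 4 and CD3E on 0. PDK4, a kinase gene induced by glucocorticoids, rose in all 15 responses, by 4.16 to 8.10 on the log2 scale. TSC22D3, another known glucocorticoid target, rose at all times in GRgamma, 30iiB and GRalpha, and at 4 and 24 h in E773R. It was not called in A477T at 2, 4 or 24 h (1.18, 0.95 and 0.59, adjusted p = 0.063, 0.18 and 0.43) or in E773R at 2 h (1.26, adjusted p = 0.12). All levels below are log2 intensities after background correction and quantile normalisation, and a response is the 24, 4 or 2 h level minus the 0 h level of the same allele. A gene was called where limma's adjusted p was under 0.05, and responses of 1 allele share its 0 h arrays.

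Few member responses were called in the first hours and more by 24 h. At 2 h, 1 response was called over 29 members and 5 alleles, ITGA5 in GRgamma (0.69%, against 1.62% of all gene responses), with 13 at an unadjusted p under 0.05. By allele at 2 h, that was 1 member in GRgamma (1.69% of all genes were called there), and 0 in A477T (1.88%), 30iiB (2.41%), E773R (0.359%) and GRalpha (1.79%). At 4 h, 6 were called, all higher (4.14%, against 3.59% of all genes and 2.16% called higher), so the members' share in either direction lay near the background. These were 3 members in GRgamma (4.35% of all genes were called), 1 in 30iiB (4.42%), 2 in GRalpha (4.73%) and 0 in A477T (3.33%) and E773R (1.14%), where limma gave 3 and 2 members at an unadjusted p under 0.05. By 24 h, 40 were called (27.6%, against 13.3% of all genes), 16 of them higher (11%, against 6.85%) and 24 lower (16.6%, against 6.48%). LAMB4 passed the detection minimum only through the 24 h arrays on which it is high, and without it 38 responses were called at 24 h (27.1%), 14 higher and 24 lower. The median member response at 24 h was -0.05 over the 5 alleles, beside -0.01 for all genes.

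**Figure D1:**
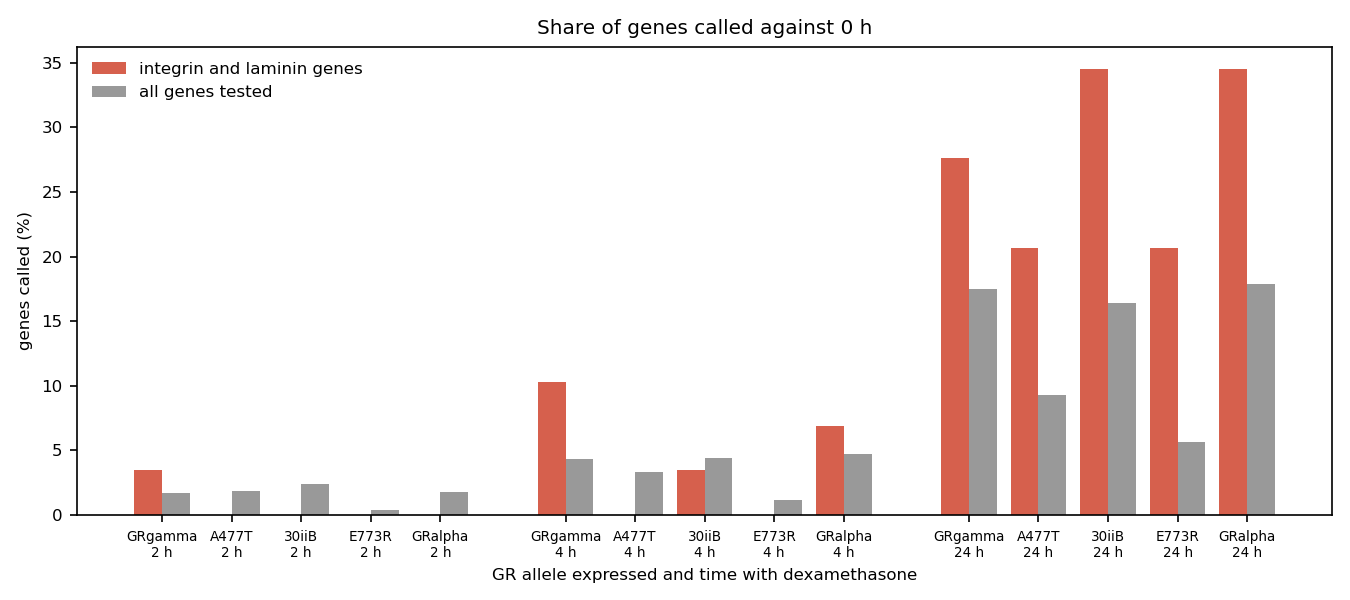
Bars give the percentage of the 29 members called (orange) and of all genes tested (grey) in each of the 15 responses, with the time and allele under each pair. At 24 h the orange bar stands above the grey one in every allele, from 20.7% against 5.64% in E773R to 34.5% against 17.9% in GRalpha. The 24 h bars of GRalpha and GRgamma count LAMB4, which passed the detection minimum only through the 24 h arrays on which it is high.

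By allele at 24 h, 8 of 29 members were called in GRgamma (27.6%, against 17.5% of all genes), 6 in A477T (20.7%, against 9.25%), 10 in 30iiB (34.5%, against 16.4%), 6 in E773R (20.7%, against 5.64%) and 10 in GRalpha (34.5%, against 17.9%). LAMB4 is 1 of those called in GRgamma and in GRalpha. The median member response in each of these was 0.04, 0.05, -0.05, -0.15 and -0.09 in that order, beside medians of all genes between -0.02 and 0.02. In all 5 alleles, 3 of 29 members were called in the same direction (10.3%): ITGA1 was higher and ITGA3 and LAMB3 were lower. The same held for 308 of 12547 genes (2.45%), 146 of them higher and 162 lower. The plot of all member responses shows these 3 as full rows in the 24 h columns.

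**Figure D2:**
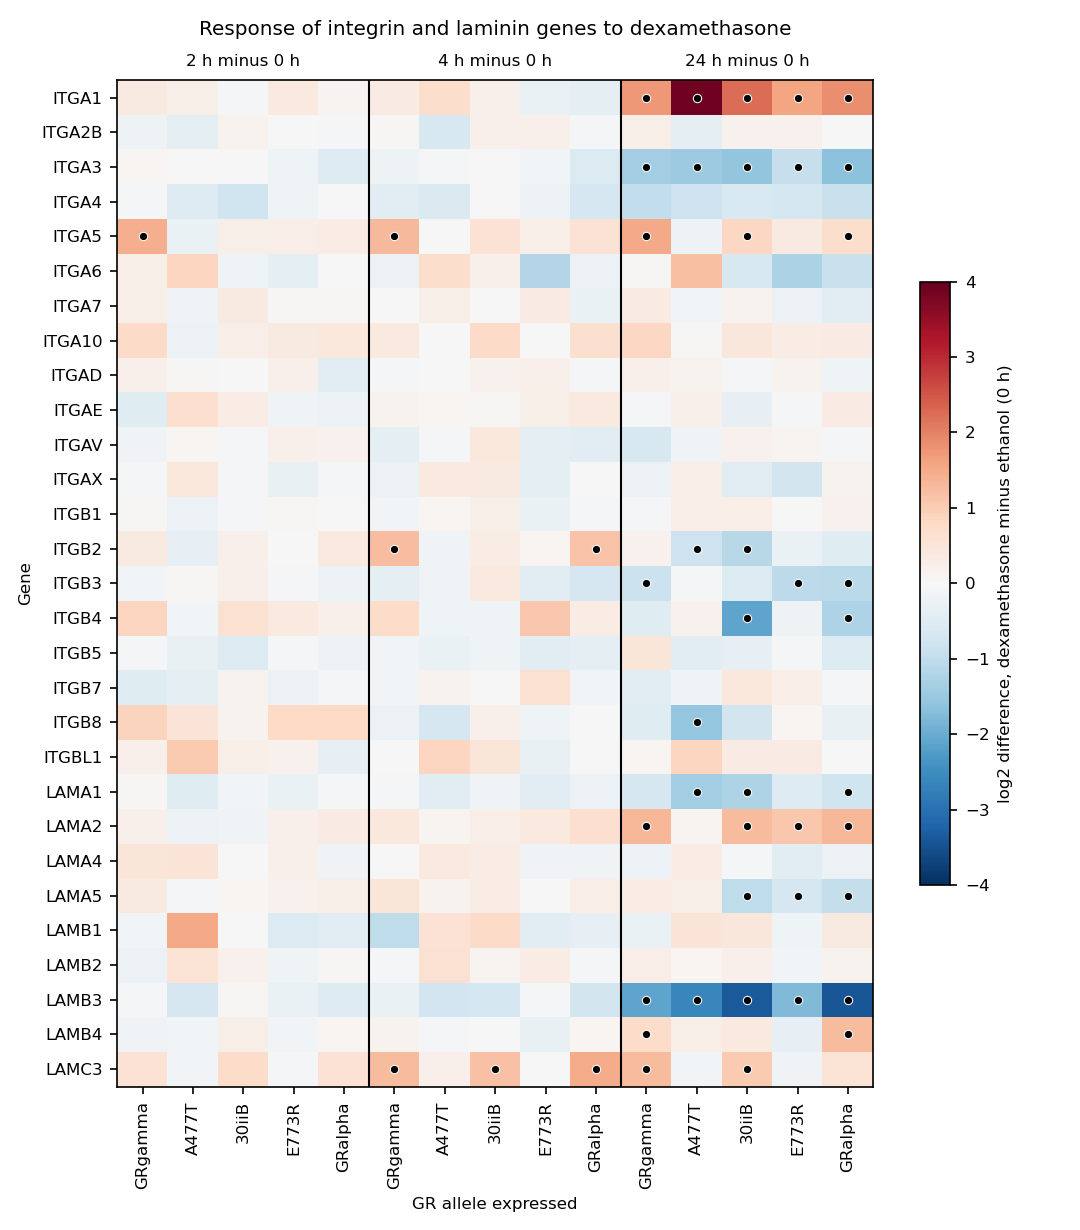
Each row is 1 of the 29 members and each column 1 of the 15 responses, grouped by time and ordered GRgamma, A477T, 30iiB, E773R, GRalpha. Colour gives the log2 response from -4 (lower than at 0 h) to 4 (higher), and dots mark adjusted p under 0.05. Dots are few at 2 and 4 h, while at 24 h they run through all alleles for LAMB3, ITGA3 and ITGA1.

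LAMB3 (chromosome 1) encodes the beta chain of the laminin of epithelial anchoring complexes and had the largest fall among the members. In GRalpha cells its level was 8.27, 8.96, 7.90 and 7.58 at 24 h, against 12.36, 11.91, 11.29 and 10.82 at 0 h. All 24 h arrays lay below all 0 h arrays, a 10.7-fold lower level (log2 response -3.42 ± 0.39, SE, adjusted p = 6.7e-11). In 30iiB cells it was 9.15, 8.47, 8.90 and 8.13 at 24 h, against 12.61, 11.49, 11.74 and 12.30 at 0 h, which was 10.4-fold lower (adjusted p = 1.1e-10). The smallest fall was in E773R cells, with 10.32, 9.60, 9.24 and 9.44 at 24 h, against 12.54, 11.47, 10.77 and 10.85 at 0 h (3.39-fold lower, adjusted p = 0.0011). The groups did not overlap in these alleles, nor in the remaining pair. A477T cells had 8.96, 9.02, 9.08 and 10.12 at 24 h, against 11.90, 11.61, 12.31 and 11.78 at 0 h (6.09-fold lower, adjusted p = 3.3e-07). GRgamma cells had 9.77, 9.27, 8.99 and 8.92 at 24 h, against 12.02, 11.63, 10.76 and 11.03 at 0 h (4.36-fold lower, adjusted p = 2e-05). Within slides that held both a 24 h and a 0 h array of GRalpha, the fall was between -4.77 and -1.86 over 3 slides. At 4 h the responses of LAMB3 were between -0.78 and -0.06 in the 5 alleles and none was called (lowest adjusted p = 0.44). A dimmer second probe for LAMB3 gave lower levels at 24 h in each allele, called in GRalpha (-1.65), A477T (-1.81) and 30iiB (-1.59) but not in GRgamma (-0.83) or E773R (-0.79).

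ITGA3 (chromosome 17), the alpha subunit of the integrin that binds this laminin, also fell in every allele by 24 h. Its level in GRalpha cells was 11.39, 11.46, 11.34 and 11.42 at 24 h, against 13.26, 13, 12.60 and 13.27 at 0 h. The 24 h arrays were tightly grouped and all below the 0 h arrays, a 3.09-fold lower level (-1.63 ± 0.23, SE, adjusted p = 3.2e-08). In 30iiB cells the level was 11.36, 11.79, 11.82 and 11.89 at 24 h, against 13.83, 12.87, 13.12 and 13.30 at 0 h (2.96-fold lower, adjusted p = 9.1e-08). It was 11.59, 11.82, 11.88 and 11.42 at 24 h in A477T cells, against 13.05, 13.32, 13.35 and 12.80 at 0 h (2.74-fold lower, adjusted p = 1.1e-06). In GRgamma cells it was 11.44, 11.85, 11.62 and 11.63 at 24 h, against 12.64, 13.10, 13.27 and 13.10 at 0 h (2.63-fold lower, adjusted p = 1.9e-06). No allele's groups overlapped. E773R again had the smallest fall, with 12.06, 12.22, 11.97 and 11.70 at 24 h, against 13.30, 12.79, 12.92 and 12.61 at 0 h (1.89-fold lower, adjusted p = 0.0048). That E773R call was lost when arrays were scaled to the same median (adjusted p = 0.19). The dimmer second ITGA3 probe fell in GRalpha, GRgamma and A477T, and was not called in 30iiB (-1.14, adjusted p = 0.062) or E773R (-0.26, adjusted p = 0.95).

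Of the 4 epithelial markers tested, 2 fell at 24 h in A477T, 30iiB and GRalpha and 1 in GRgamma and E773R. CDH1, the epithelial cadherin, fell in all 5 alleles, by at least 5.60-fold in 30iiB and at least 2.01-fold in GRalpha. KRT14, a keratin of basal epithelium, fell in A477T (at least 2.67-fold), 30iiB (at least 6.33-fold) and GRalpha (at least 3.17-fold) and was not called in GRgamma (adjusted p = 0.10) or E773R (adjusted p = 0.073). EPCAM, an epithelial adhesion molecule detected on 71 arrays, was called in no allele, with 24 h responses of 0.26 (GRgamma), 0.06 (A477T), 0.01 (30iiB), -0.40 (E773R) and -0.01 (GRalpha). KRT5, a keratin, was called in none either, with 24 h responses between 0.01 in E773R and 0.70 in GRalpha (adjusted p = 0.091), and was detected on 0 arrays at 0 and 24 h. The mean level of the 5 epithelial markers with a probe lay between 5.46 and 5.66 at 24 h in GRalpha cells, against 5.99 to 6.51 at 0 h. In 30iiB cells it lay between 5.29 and 5.48 at 24 h, against 6.68 to 6.86 at 0 h, and the ranges did not overlap in any allele. KRT19 was detected on 0 arrays. The part of these genes in the LAMB3 and ITGA3 results was not tested, and in bulk cultures fewer cells of a type and less RNA per cell cannot be told apart.

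**Figure D3:**
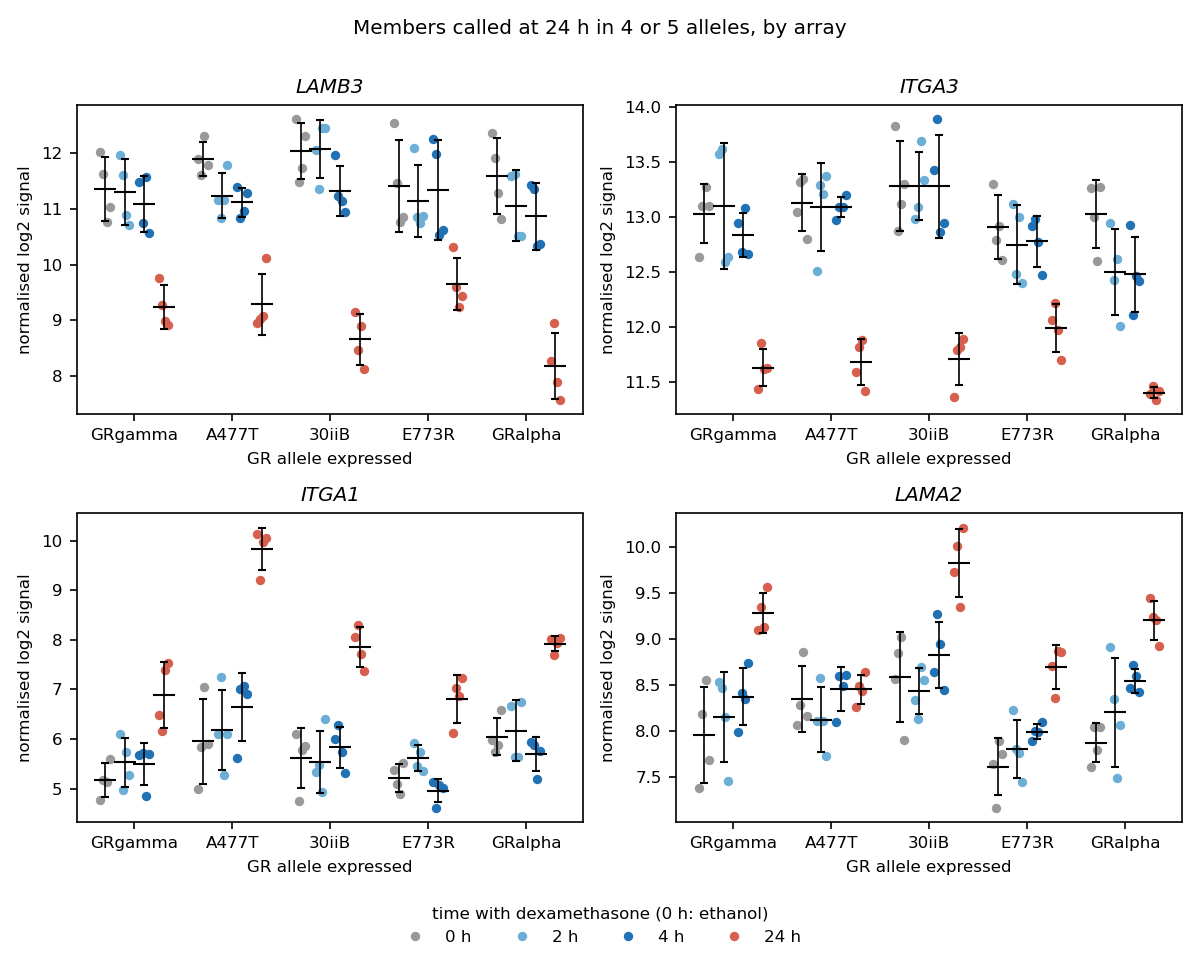
Log2 levels of LAMB3, ITGA3, ITGA1 and LAMA2 in each array (points) with the mean ± SD of the 4 arrays of a group, by hours of dexamethasone and by allele. LAMB3 and ITGA3 lie below their 0 h level at 24 h in all alleles. ITGA1 lies above its 0 h level at 24 h in all alleles, and LAMA2 does so in all but A477T. No LAMB3 or ITGA3 response was called at 2 or 4 h, where the lowest were -0.78 (LAMB3) and -0.55 (ITGA3), both at 4 h.

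ITGA1 (chromosome 5), which pairs with the beta 1 subunit in a receptor for collagens and laminins, rose in all 5 alleles by 24 h and most in A477T. A477T cells had 10.13, 9.21, 9.97 and 10.06 at 24 h, against 5.00, 5.83, 7.05 and 5.90 at 0 h, of which 2 of 4 were detected. The level was 14.9-fold higher (3.90 ± 0.35, SE, adjusted p = 3.4e-14), with no overlap. In 30iiB cells it was 8.05, 8.31, 7.71 and 7.37 at 24 h, against 6.10, 4.75, 5.78 and 5.86 at 0 h (4.72-fold higher, adjusted p = 7.4e-07). GRalpha cells had 8.02, 7.70, 7.93 and 8.03 at 24 h, against 5.99, 5.74, 5.88 and 6.58 at 0 h (3.66-fold higher, adjusted p = 3.1e-05). In GRgamma and E773R the probe was detected on all 4 arrays at 24 h and on 0 of 4 at 0 h, so only a lower bound of the fold can be given. GRgamma cells had 6.49, 6.16, 7.40 and 7.53 at 24 h, against 4.76, 5.18, 5.14 and 5.60 at 0 h (at least 1.73-fold higher, adjusted p = 0.00014). E773R cells had 6.12, 7.03, 6.86 and 7.23 at 24 h, against 5.38, 5.09, 4.89 and 5.52 at 0 h (at least 1.72-fold higher, adjusted p = 0.0012). The A477T arrays at 24 h thus stood above those of every other allele at that time. ITGA1 was called in no allele at 2 or 4 h. Without background subtraction its 24 h responses were smaller, at 0.63 (GRgamma), 2.19 (A477T), 0.94 (30iiB), 0.55 (E773R) and 0.79 (GRalpha), and each was still called.

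LAMA2 (chromosome 6), the alpha chain of the laminin around muscle fibres and Schwann cells, rose by 24 h in 4 alleles and not detectably in A477T. Its level in GRalpha cells was 9.44, 9.24, 9.20 and 8.92 at 24 h, against 7.61, 8.04, 7.79 and 8.04 at 0 h (2.52-fold higher, 1.33 ± 0.24, SE, adjusted p = 1.4e-05). In GRgamma cells it was 9.09, 9.35, 9.13 and 9.56 at 24 h, against 7.38, 8.18, 8.55 and 7.68 at 0 h (2.53-fold higher, adjusted p = 1.7e-05). Both alleles had every 24 h array above every 0 h array. In 30iiB cells it was 9.73, 10.01, 9.35 and 10.21 at 24 h, against 8.56, 8.84, 9.02 and 7.90 at 0 h (2.37-fold higher, adjusted p = 5e-05). E773R cells had 8.70, 8.35, 8.87 and 8.86 at 24 h, against 7.64, 7.16, 7.89 and 7.75 at 0 h (2.12-fold higher, adjusted p = 0.0013). Neither of these overlapped either. A477T cells had 8.26, 8.49, 8.43 and 8.64 at 24 h, against 8.06, 8.28, 8.86 and 8.16 at 0 h, overlapping groups with a response of 0.11 (adjusted p = 0.91). A second LAMA2 probe rose in the same 4 alleles, by 1.22 to 1.68, and had a response of 0.27 in A477T. No allele was called at 4 h, where responses ran between 0.11 and 0.68.

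Only 3 members were called at 4 h, the time matched to its control, and all 6 of those calls were rises. LAMC3 (chromosome 9), a gamma chain found in vascular and nervous tissue, was called in 3 alleles. Its level in GRgamma cells was 10.35, 10.83, 10.05 and 11.12 at 4 h, against 8.90, 9.89, 9.65 and 8.84 at 0 h (2.41-fold higher, adjusted p = 0.00068). In 30iiB cells it was 9.11, 9.59, 9.86 and 9.22 at 4 h, against 7.65, 8.73, 8.61 and 8.15 at 0 h (2.23-fold higher, adjusted p = 0.0022). In GRalpha cells it was 10.30, 10.88, 10.85 and 10.43 at 4 h, against 9.08, 9.32, 9.13 and 9.03 at 0 h (2.78-fold higher, 1.48 ± 0.27, SE, adjusted p = 4.4e-05). None of the 3 overlapped. A477T and E773R cells had 4 h responses of 0.21 (adjusted p = 0.96) and 0.01 (adjusted p = 0.99). At 24 h LAMC3 was higher in GRgamma, with 10.51, 10.46, 10.44 and 10.95 against 9.32 ± 0.53 (SD, n = 4) at 0 h (adjusted p = 0.00021), and in 30iiB (1.04, adjusted p = 0.0026), where 1 array overlapped. In GRalpha it had a 24 h response of 0.55 (adjusted p = 0.17), called with the series matrix (0.44, adjusted p = 0.0055) or a fixed slide block (0.54, adjusted p = 0.041), and the 24 h arrays, at 9.57 to 9.97, lay below the 4 h arrays. At 2 h no LAMC3 response passed the threshold, but that of 30iiB was called with the slide as a fixed block (0.86, adjusted p = 0.011) or a random block (0.83, adjusted p = 0.021). With only the compared groups in the model, the LAMC3 calls at 4 h in GRgamma (adjusted p = 0.10) and 30iiB (adjusted p = 0.18) were lost. So was the 24 h call in 30iiB. The 30iiB calls at 4 and 24 h were also lost when arrays were scaled to the same median.

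ITGB2 (chromosome 21), the beta subunit of leukocyte integrins, rose at 4 h in GRgamma and GRalpha. GRgamma cells had 9.71, 10.23, 9.63 and 10.43 at 4 h, against 9.09, 8.98, 8.65 and 8.40 at 0 h (2.33-fold higher, 1.22 ± 0.28, SE, adjusted p = 0.0023). GRalpha cells had 11.07, 11.51, 11.57 and 11.48 at 4 h, against 10.89, 10.51, 9.95 and 9.69 at 0 h (2.21-fold higher, adjusted p = 0.0045). The groups did not overlap, but the GRalpha call was lost without GRalpha 0 h replicate 4 (adjusted p = 0.058). It was also lost when arrays were scaled to the same median (adjusted p = 0.1). At 24 h the called responses were falls, in alleles whose 4 h responses were not called (0.30 in 30iiB and -0.14 in A477T). In 30iiB cells ITGB2 had 10.02, 9.81, 9.74 and 9.29 at 24 h, against 10.60, 10.93, 10.66 and 11.12 at 0 h (2.16-fold lower, adjusted p = 0.0022). In A477T it fell by 0.84 with overlapping groups (adjusted p = 0.044), a call lost when any of 5 of its 8 arrays was left out (highest adjusted p = 0.26). In GRgamma and GRalpha, where it had risen at 4 h, the 24 h responses were 0.18 (adjusted p = 0.73) and -0.48 (adjusted p = 0.28). ITGAX and ITGAD, alpha partners of this subunit in leukocytes, were called in no comparison. Their probes were detected on only 24 and 10 of the 80 arrays, so changes near background could be missed.

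ITGA5 (chromosome 12), the alpha subunit of the fibronectin receptor, rose at every time in GRgamma cells. There it had 11.70, 12.58, 11.50 and 11.42 at 2 h, 11.29, 11.89, 11.73 and 11.67 at 4 h, and 11.89, 11.92, 11.79 and 11.89 at 24 h, all above 9.87, 10.76, 11.04 and 9.75 at 0 h. The GRgamma responses were 1.45 at 2 h (adjusted p = 7.3e-05, where 1.69% of all genes were called), 1.29 at 4 h (adjusted p = 0.00022) and 1.52 at 24 h (adjusted p = 3.1e-06), each with an SE of 0.25. With only the compared groups in the model, the 2 h and 4 h calls were lost (adjusted p = 0.19 and 0.085). At 24 h ITGA5 also rose in 30iiB, with 11.57, 11.90, 11.64 and 12.14 at 24 h, against 11.04, 10.97, 11.13 and 10.74 at 0 h (1.79-fold higher, adjusted p = 0.012). That call was lost without 30iiB 24 h replicate 4 (adjusted p = 0.062) and when arrays were scaled to the same median (adjusted p = 0.25). The smaller rise in GRalpha, 0.69 (adjusted p = 0.049), was lost when any of 6 of its 8 arrays was left out (highest adjusted p = 0.21). The 24 h responses of ITGA5 in A477T and E773R were -0.21 (adjusted p = 0.81) and 0.37 (adjusted p = 0.64).

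**Figure D4:**
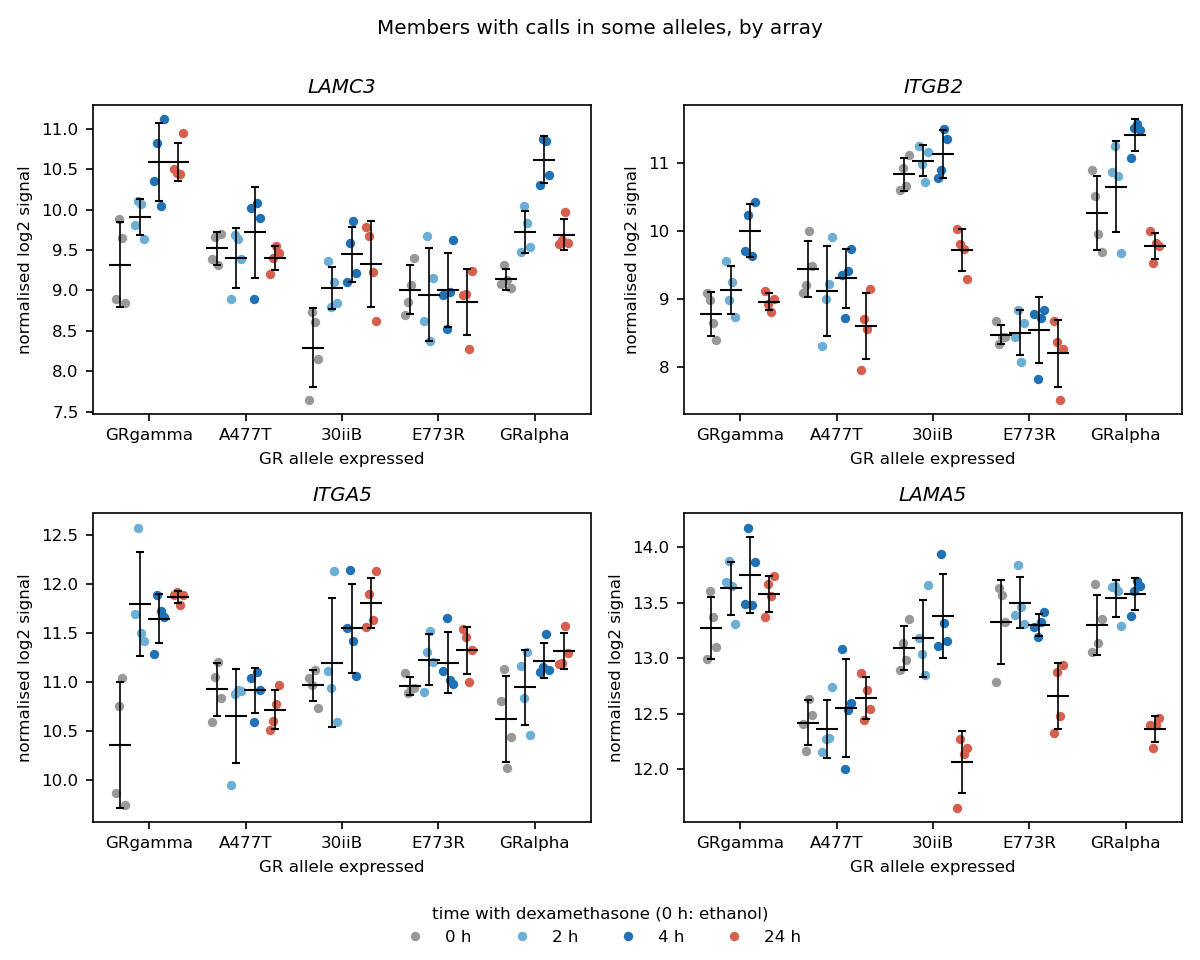
Log2 levels of LAMC3, ITGB2, ITGA5 and LAMA5 in each array (points) with the mean ± SD of the 4 arrays of a group, by hours of dexamethasone and by allele. LAMC3 is higher at 4 h in GRgamma, 30iiB and GRalpha only, ITGA5 is higher from 2 h on in GRgamma, and LAMA5 is lower at 24 h in 30iiB, E773R and GRalpha.

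LAMA5 (chromosome 20), the alpha chain of the laminins most widely found in adult basement membranes, fell at 24 h in 3 alleles. In 30iiB cells its level was 11.65, 12.27, 12.14 and 12.19 at 24 h, against 12.89, 13.14, 12.98 and 13.35 at 0 h (2.04-fold lower, adjusted p = 4.6e-05). In GRalpha cells it was 12.40, 12.19, 12.40 and 12.46 at 24 h, against 13.06, 13.67, 13.14 and 13.35 at 0 h (1.92-fold lower, -0.94 ± 0.20, SE, adjusted p = 0.00019). Neither pair overlapped, and the GRalpha call was lost when arrays were scaled to the same median (adjusted p = 0.15). In E773R the fall of 0.67 came with overlapping groups (adjusted p = 0.027) and was lost when any of 5 of its 8 arrays was left out (highest adjusted p = 0.15). Median scaling and a model of only the compared groups also ended that call (highest adjusted p = 0.84). GRgamma cells had 13.37, 13.67, 13.56 and 13.74 at 24 h, against 12.99, 13.61, 13.37 and 13.10 at 0 h, a response of 0.31 (adjusted p = 0.32). A477T cells had 12.87, 12.44, 12.71 and 12.54 at 24 h, against 12.41, 12.16, 12.63 and 12.49 at 0 h, a response of 0.22 (adjusted p = 0.70). In both, the groups overlapped.

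LAMA1 (chromosome 18), the alpha chain of early embryonic laminin, was called lower at 24 h in 3 alleles. A477T cells had 11, 10.21, 10.48 and 10.54 at 24 h, against 11.89, 11.65, 12.62 and 11.63 at 0 h (2.62-fold lower, -1.39 ± 0.29, SE, adjusted p = 3e-04). In 30iiB cells it was 10.35, 10.04, 10.13 and 10.03 at 24 h, against 12.15, 10.76, 11.07 and 11.48 at 0 h (2.34-fold lower, adjusted p = 0.00099). No array overlapped in either allele. The GRalpha fall of 0.81 (adjusted p = 0.041) was lost when any of 6 of its 8 arrays was left out (highest adjusted p = 0.13). Scaling arrays to the same median also ended that call (adjusted p = 0.22). The GRgamma response of -0.68 missed the threshold (adjusted p = 0.10) but was called with the slide as a fixed block (-0.84, adjusted p = 0.023) or a random block (-0.78, adjusted p = 0.03), with only the compared groups (adjusted p = 0.031) and with the series matrix (-0.70, adjusted p = 0.0036). In E773R the response was -0.51 (adjusted p = 0.49), called with the series matrix only (-0.61, adjusted p = 0.026). A second LAMA1 probe fell in A477T (-1.29) and 30iiB (-1.39), and gave -1.03 in GRalpha (adjusted p = 0.057).

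Among integrin beta subunits, ITGB4 (chromosome 17), the partner of the alpha 6 subunit in hemidesmosomes, fell at 24 h in 30iiB and GRalpha. In 30iiB cells its level was 6.24, 6.29, 6.45 and 6.22 at 24 h, against 8.28, 8.16, 8.27 and 8.96 at 0 h, without overlap (4.34-fold lower, -2.12 ± 0.38, SE, adjusted p = 1.2e-05). In GRalpha cells it was 5.58, 5.85, 6.19 and 6.68 at 24 h, against 7.49, 7.52, 7.68 and 6.57 at 0 h, and 1 array overlapped (2.36-fold lower, adjusted p = 0.014). That GRalpha call was lost without GRalpha 0 h replicate 3 (adjusted p = 0.053) or GRalpha 24 h replicate 1 (adjusted p = 0.067). It was also lost without background subtraction (adjusted p = 0.13). The other ITGB4 probes disagreed, since a probe detected on 57 arrays fell in 30iiB (-1.88) and GRgamma (-1.32), and a probe detected on 31 arrays had responses of -0.14 in 30iiB and 0.11 in GRalpha.

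ITGB3 (chromosome 17), a partner of the alpha V subunit in the vitronectin receptor, was detected on 0 arrays at 24 h in every allele. Its 24 h level in GRalpha cells was 5.01, 5.44, 5.32 and 5.04, against 6.06, 5.71, 6.33 and 6.97 at 0 h, of which 3 were detected (at least 1.33-fold lower, adjusted p = 0.0098). In E773R cells it was 5.74, 5.60, 5.81 and 4.99 at 24 h, against 6.08, 5.84, 7.93 and 6.46 at 0 h (at least 1.46-fold lower, adjusted p = 0.03). These groups lay close to each other without overlapping. In GRgamma the fall of at least 1.29-fold came with overlap (adjusted p = 0.046). The GRalpha call was lost without GRalpha 0 h replicate 4 (adjusted p = 0.090), the E773R call without any of 3 arrays (without 0 h replicate 3, adjusted p = 0.46) and the GRgamma call without any of 6 (highest adjusted p = 0.12). All 3 were also lost when arrays were scaled to the same median, and the E773R call with only the compared groups too. The highest adjusted p for E773R in these settings was 0.7.

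ITGB8 (chromosome 7), whose dimer with the alpha V subunit binds latent TGF-beta, was called in 1 response. A477T cells had 6.91, 6.25, 6.68 and 6.17 at 24 h, against 7.33, 7.94, 9.31 and 7.69 at 0 h, without overlap (2.95-fold lower, -1.56 ± 0.39, SE, adjusted p = 0.0028). The call was lost without A477T 0 h replicate 3, the highest array (-1.15, adjusted p = 0.060). LAMB4 (chromosome 7), a laminin beta chain, was detected on 7 arrays, 5 of which were 24 h arrays of GRgamma (2) and GRalpha (3). Only 2 other arrays detected it, under the minimum of 4, so it entered the set through the groups in which it is high, and its values are given as a description with no test. It had 5.54, 5.92, 6.48 and 6.41 at 24 h in GRgamma cells, against 5.23, 5.48, 5.52 and 5.22 at 0 h. GRalpha cells had 6.21, 5.77, 6.37 and 6.81 at 24 h, against 5.04, 5.03, 5.08 and 4.97 at 0 h, and no array of any allele detected it at 0 h. LAMB4 thus lay near the limit of detection throughout.

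To ask whether the receptor variants responded differently from GRalpha, the response of each was set against the GRalpha response in the same model. At 4 h, 0 of 116 member differences were called (0.574% of all genes were), with 7 at an unadjusted p under 0.05 in limma. The share of all genes called at that time was 0.359% for GRgamma, 1.42% for A477T, 0.0478% for 30iiB and 0.47% for E773R. The LAMC3 response at 4 h was lower than in GRalpha by 1.47 in E773R (95% interval -2.23 to -0.71, adjusted p = 0.053) and by 1.27 in A477T (-2.03 to -0.51, adjusted p = 0.083), neither past the threshold. With the slide as a block both were called, in E773R as a fixed block at -1.56 (adjusted p = 0.0018) and as a random block at -1.52 (adjusted p = 0.003), and in A477T at -1.18 and -1.20 (adjusted p = 0.024 for each). Both were also called without background subtraction (adjusted p = 0.02 in E773R and 0.037 in A477T) and with the series matrix (0.00073 and 0.007), and the E773R difference without E773R 4 h replicate 4 (0.015), E773R 0 h replicate 1 (0.044) or GRalpha 4 h replicate 1 (0.041). The ITGB2 difference at 4 h in A477T was -1.28 (-2.08 to -0.49, adjusted p = 0.11), called without background subtraction (-1.12, adjusted p = 0.032) or without GRalpha 0 h replicate 1 (-1.49, adjusted p = 0.037). Differences from GRalpha share the GRalpha arrays, so they are not independent of each other.

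At 24 h, 5 of 116 member differences were called (4.31%, against 2.27% of all genes), 3 of them higher than in GRalpha (1.13% of all genes) and 2 lower (1.14%). By variant these were 1 in GRgamma (1.94% of all genes), 3 in A477T (5.04%), 0 in 30iiB (0.343%) and 1 in E773R (1.75%). The E773R difference is that of LAMB4, without which 4 were called (3.57%). LAMA5 gave 2 of these: its response exceeded that of GRalpha by 1.25 in GRgamma (95% interval 0.69 to 1.81, adjusted p = 0.0032) and by 1.16 in A477T (0.60 to 1.72, adjusted p = 0.0037). Both LAMA5 differences were lost when arrays were scaled to the same median (adjusted p = 0.24 and 0.59). The ITGA1 response was higher in A477T than in GRalpha by 2.03 (1.03 to 3.03, adjusted p = 0.0046), and that call held in all alternatives. The LAMA2 response was lower in A477T than in GRalpha by 1.22 (-1.91 to -0.53, adjusted p = 0.018), a call lost with median scaling and without A477T 0 h replicate 3 (adjusted p = 0.075). The second LAMA2 probe gave a difference of -1.12 there and was not called (adjusted p = 0.14). The LAMB4 difference of E773R, -1.59, is no measured change, since 0 arrays of E773R detected it at 0 or 24 h and the gene passed the detection minimum through the GRgamma and GRalpha arrays at 24 h.

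No LAMB3 or ITGA3 difference from GRalpha passed the threshold with all arrays in the model as described. For LAMB3 the E773R response was less negative than that of GRalpha by 1.66 (95% interval 0.56 to 2.76, adjusted p = 0.15, called without E773R 0 h replicate 1 at 2.03, adjusted p = 0.033) and the GRgamma response by 1.29 (0.19 to 2.39, adjusted p = 0.45). Its difference was 0.81 in A477T (-0.29 to 1.91, adjusted p = 0.67) and 0.04 in 30iiB cells (-1.06 to 1.14, adjusted p = 1). For ITGA3 in E773R it was 0.71 (0.07 to 1.35, adjusted p = 0.54). The intervals for E773R and for LAMB3 in GRgamma lie above 0, but are not adjusted for the number of genes tested, and the adjusted p missed the threshold in each.

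**Figure D5:**
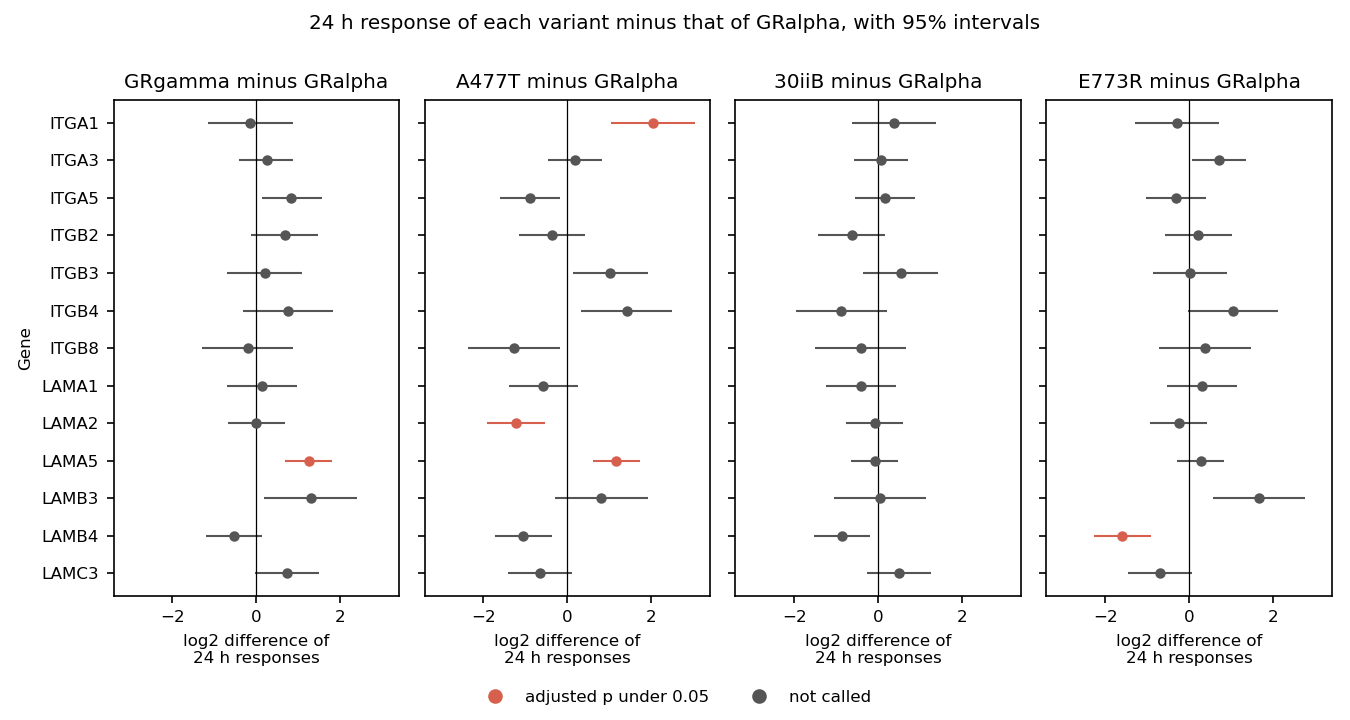
For each of the 13 called members, the response of a variant at 24 h minus that of GRalpha (points, log2) with its 95% interval, 1 panel a variant. Orange marks adjusted p under 0.05: LAMA5 at 1.25 in GRgamma, ITGA1 at 2.03, LAMA5 at 1.16 and LAMA2 at -1.22 in A477T, and LAMB4, which E773R arrays did not detect at 0 or 24 h, at -1.59 in E773R.

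Before hormone, 4 of 116 member differences from GRalpha were called, all lower in the variant (3.45%, against 1.24% of all genes and 0.576% called lower). They were 2 in GRgamma (0.486% of all genes), 1 in A477T (2.34%), 0 in 30iiB (1.55%) and 1 in E773R (0.59%). With the slide as a fixed block 3 more were called, ITGB2 in A477T (-0.96, adjusted p = 0.028), ITGB8 in E773R (-1.49, adjusted p = 0.011) and LAMC3 in 30iiB (-0.93, adjusted p = 0.0055). ITGB2 had 8.67, 8.34, 8.44 and 8.44 in E773R cells and 9.09, 8.98, 8.65 and 8.40 in GRgamma cells, against 10.89, 10.51, 9.95 and 9.69 in GRalpha cells. All variant arrays lay below all GRalpha arrays, by 1.79 in E773R (adjusted p = 2.5e-05) and 1.48 in GRgamma (adjusted p = 0.00087). The GRgamma call was lost with only the compared groups in the model (adjusted p = 0.19). LAMA5 had 12.41, 12.16, 12.63 and 12.49 in A477T cells, against 13.06, 13.67, 13.14 and 13.35 in GRalpha cells (1.84-fold lower, adjusted p = 0.0035). The A477T cells thus started with LAMA5 near the level that GRalpha cells reached at 24 h. That LAMA5 call was lost with median scaling and with only the compared groups in the model (highest adjusted p = 0.28). ITGB8 had 6.67, 7.15, 7.02 and 7.31 in GRgamma cells, against 8.36, 9.25, 7.87 and 8.90 in GRalpha cells (-1.56, adjusted p = 0.032), a call lost when any of 5 of the 8 arrays was left out (highest adjusted p = 0.24). The allele and the history of its cell line cannot be told apart in these differences.

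The other 16 members were called in none of the 27 comparisons, and their responses ran between -1.26 and 1.53. ITGB1, the subunit shared by most matrix receptors, had 24 h responses between -0.05 (GRgamma) and 0.28 (30iiB), with 0.16 for GRalpha cells (SE 0.18), and its 4 GRalpha arrays lay between 15.52 and 15.84 at 24 h, against 15.27 to 15.75 at 0 h. ITGAV, the alpha subunit of vitronectin and TGF-beta binding integrins, had 24 h responses between -0.63 and 0.17. ITGA6, the laminin-binding partner of ITGB4, varied more, with 24 h responses between -1.26 in E773R and 1.19 in A477T and an SE of 0.54, so changes of that size were not detectable. For LAMB1, a beta chain of many laminins, the SE was 0.76 and replicates of 1 group spread widely, from 7.50 to 10.50 in 30iiB at 0 h. The remaining members not called were ITGA2B, ITGA4, ITGA7, ITGA10, ITGAD, ITGAE, ITGAX, ITGB5, ITGB7, ITGBL1, LAMA4 and LAMB2.

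Genes that work with integrins and laminins were read from 3 lists: 26 tested adhesion adaptors, 19 matrix ligands of integrins and 16 basement membrane proteins and laminin partners. At 24 h in GRalpha, 2 adaptors rose and 5 fell, 2 ligands rose and 6 fell, and 1 basement membrane gene rose and 4 fell, with medians of -0.26, -0.28 and -0.24, beside -0.01 for all genes, of which 17.9% were called. In E773R, where 5.64% of all genes were called, 0 adaptors rose and 2 fell, 1 ligand rose and 2 fell, and 1 basement membrane gene rose and 2 fell, with medians of -0.09, -0.20 and 0.03. The counts in GRgamma, in the same order of lists, were 3 up and 4 down, 0 up and 5 down, and 2 up and 2 down (17.5% of all genes called), with medians of -0.22, -0.11 and 0.03. In A477T they were 0 up and 5 down, 2 up and 5 down, and 1 up and 2 down (9.25% of all genes called), with medians of -0.30, -0.36 and -0.30. In 30iiB they were 2 up and 5 down, 2 up and 7 down, and 1 up and 2 down (16.4% of all genes called), with medians of -0.12, -0.44 and -0.43. Medians of all genes in these lay between -0.02 and 0.02, and several of the counts, such as 3 of 16 basement membrane genes in 30iiB, lie near the share of all genes.

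Of the adaptors, BCAR1, a scaffold phosphorylated at focal adhesions, fell at 24 h in all 5 alleles, with responses between -0.71 in A477T and -1.79 in GRalpha, and at 4 h in A477T (-0.69), 30iiB (-0.98) and GRalpha (-1.18, adjusted p = 3e-06). FERMT1, the kindlin of epithelia, fell at 24 h in all alleles, by at least 2.77-fold in 30iiB and at least 1.55-fold in GRalpha. TLN2, a talin that activates integrins, rose in GRgamma (1.04), 30iiB (1.16) and GRalpha (1.43), and its responses were -0.36 in A477T and 0.32 in E773R, neither called. TNS3, a tensin, rose in GRgamma (0.81, adjusted p = 0.011) and fell in 30iiB (-0.69, adjusted p = 0.034) and GRalpha (-1.30, adjusted p = 1.7e-05). TNS1, another tensin, rose at 4 h in GRgamma (1.42), 30iiB (1.05) and GRalpha (0.86).

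Of the ligands, TGFBI, a TGF-beta induced protein bound by integrins, had the largest fall in the lists. It averaged 5.41 at 24 h in GRalpha, where 0 of 4 arrays detected it, against 11.52 at 0 h, a level at least 50.6-fold lower (adjusted p = 7.7e-31). Among the variants its response ran from -5.51 in GRgamma and -4.91 in 30iiB to -2.86 in A477T and -2.53 in E773R, each called, and at 4 h it had fallen in every allele but E773R. THBS1, a thrombospondin, fell in 4 alleles (-2.71 in GRalpha) and had a response of -1.01 in E773R (adjusted p = 0.23). COL3A1, a fibrillar collagen chain, fell in GRgamma (-1.81) and GRalpha (-1.56), and by at least 2.07-fold in 30iiB. FBLN5, fibulin 5, rose in A477T (2.84), 30iiB (1.46), E773R (1.91) and GRalpha (1.51), and had a response of 0.15 in GRgamma (adjusted p = 0.67). CCN1 fell at 4 h in A477T (-1.31), 30iiB (-1.91) and GRalpha (-1.48).

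Of the basement membrane genes, NTN4, a netrin that binds laminin gamma chains, rose at 24 h in GRgamma (1.26), 30iiB (3.00), E773R (1.77) and GRalpha (3.14, adjusted p = 6.9e-09), and had a response of 0.04 in A477T (adjusted p = 0.98). SDC4, a syndecan that acts with integrins at focal adhesions, fell in all 5 alleles, with responses of -2.69 (GRgamma), -0.77 (A477T), -2.42 (30iiB), -1.23 (E773R) and -2.74 (GRalpha). SDC4 had already fallen at 4 h in GRgamma (-0.77), 30iiB (-0.85) and GRalpha (-1.07). AGRN, agrin, fell by at least 1.96-fold in GRalpha (adjusted p = 0.0098), and CD9, a tetraspanin partner of laminin-binding integrins, fell there by 1.16 (adjusted p = 0.019), while neither was called in a variant.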

How the data were processed

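RNA of 80 U2OS cultures was hybridised to 1-colour Illumina bead arrays. Per the file headers, the deposited signal table gave 25204 probes an intensity on every array and, next to it, a detection p-value. The authors' series matrix held 21241 probes on a log2 scale as found by comparison with the deposited signals (median slope 0.963, array medians 7.89 to 7.97). Each of its 80 columns correlated best with its own array (80 of 80, lowest 0.928), and how it was normalised is not stated in the labels.

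Probes were named from the platform annotation: 19291 had 1 symbol, 0 had several and 5913, with none here, were not used. By gene ID, 19274 of the named probes were found in RefSeq's gene list and 17 were not. Probes with a detection p under 0.05 on at least 4 arrays were kept (15392, with 3899 removed), and the probe with the highest mean stood for each of 12547 genes. Of the members, 8 had more than 1 kept probe.

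Intensities were corrected with normexp (offset 16), quantile-normalised and log2-transformed by limma 3.58.1 (neqc), run under R 4.3.3. One limma model with 20 group means (60 residual and 5.54 prior degrees of freedom) gave 27 comparisons: 15 responses, 8 differences from the GRalpha response and 4 differences at 0 h. Tests were two-sided, with Benjamini-Hochberg adjustment over all genes of a comparison, and the fit was tested on simulated data. Where no array of a group detected a gene, its fold is "at least", set against the higher of its own value and the lowest detected value on each array (5.48 to 7.10, median 5.87).

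The 10 slides held 8 arrays each, and no slide held more than 1 array from the same group. Of 47 called member responses, 46 had a slide with both groups, and 101 of 101 same-slide pairs of arrays had the called direction. Arrays with equal replicate numbers were not treated as pairs, and whether they are paired is not settled. After group means were removed, 53 of 120 same-numbered pairs within an allele correlated over 0.1 (median 0.063). The median for all pairs on different slides was -0.055, and for pairs on the same slide it was 0.356. Some same-numbered pairs shared a slide, so slide and replicate number are mixed in their correlations. The replicate block used as an alternative is shared by all alleles, so it does not test pairing within an allele. No 2 arrays were identical. The number of arrays limits the precision.

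A member was described by array when it was called in at least 1 comparison and was among the 16 with the largest called change, which 13 were. Of each list, up to 4 called genes a time were named, those with the largest change in GRalpha. The members, lists and named-gene rule were chosen with earlier results of these data known. Alternatives were no background subtraction, median scaling, the series matrix, no detection filter, only the compared groups, the slide as a fixed or random block, the replicate block and leaving out each array, and, chosen after seeing the data, leaving out the 2 arrays of lowest agreement. Plots came from matplotlib 3.10.9 under Python 3.11.15.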

Additional observations from a re-analysis of the deposited data

Results flagged for a closer look

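In 19 of 260 sets of 4 replicates of the 13 called members, 1 array stood apart from the other 3, by Dixon's gap test, which chance alone gives in about 1 in 20 sets. Values are log2 levels. ITGA1 was low in GRgamma at 4 h, replicate 3 (4.85, others 5.68 to 5.71), in A477T at 4 h, replicate 1 (5.61, others 6.90 to 7.08), and in A477T at 24 h, replicate 2 (9.21, others 9.97 to 10.13). LAMB3 was high in A477T at 24 h, replicate 4 (10.12, others 8.96 to 9.08), and in E773R at 2 h, replicate 1 (12.10, others 10.75 to 10.88). ITGB4 was high in 30iiB at 0 h, replicate 4 (8.96, others 8.16 to 8.28), and at 2 h, replicate 3 (10.75, others 8.37 to 8.60). The last of these is 1 of the 2 arrays of lowest agreement with their group. ITGB2 was low in E773R at 4 h, replicate 2 (7.82, others 8.72 to 8.84), the other of those arrays. ITGB8 was low in GRgamma at 4 h, replicate 3 (5.82, others 7.06 to 7.22). ITGB3 was low in GRgamma at 0 h, replicate 4 (5.70, others 6.48 to 6.51).

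ITGA5 was high in GRalpha at 4 h, replicate 3 (11.49, others 11.11 to 11.16), and low in A477T at 2 h, replicate 1 (9.95, others 10.88 to 10.92). LAMC3 was high in GRalpha at 24 h, replicate 3 (9.97, others 9.57 to 9.62), and in GRgamma at 24 h, replicate 4 (10.95, others 10.44 to 10.51), and low in A477T at 4 h, replicate 2 (8.89, others 9.90 to 10.08). LAMA1 was high in GRalpha at 4 h, replicate 1 (11.44, others 10.67 to 10.76), in GRgamma at 24 h, replicate 1 (10.67, others 10.26 to 10.32), and in E773R at 0 h, replicate 1 (11.80, others 10.88 to 11.02). LAMA5 was low in GRalpha at 2 h, replicate 4 (13.29, others 13.61 to 13.65).

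Variant responses were set against GRalpha responses in 232 tests, of which 5 passed the threshold, all at 24 h. They were LAMA5 in GRgamma (1.25), LAMA5 in A477T (1.16), ITGA1 in A477T (2.03), LAMA2 in A477T (-1.22) and LAMB4 in E773R (-1.59). The last is no measured change, since E773R arrays did not detect LAMB4 at 0 or 24 h, and without it 4 passed.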

How the results depend on the processing

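No called response, difference or 0 h difference of a member changed direction in any alternative. The 24 h responses of ITGA1 and LAMB3 stayed past the threshold in all 9 alternatives and with each array left out. The same held for LAMA2 in all alleles but A477T, where it was not called, and for ITGA3 in all but E773R. It also held for the ITGA1 difference in A477T. Of the 56 calls, 51 held without background subtraction, 37 with arrays scaled to the same median (which moved the median of all genes by up to 0.17), 54 without the detection filter, 42 with only the compared groups in the model, 55 with the slide as a fixed or a random block (within-slide correlation 0.255) and 56 with the series matrix, the replicate block or the 2 arrays of lowest agreement left out. The members called at 2 h (1) numbered 4 with the series matrix, 3 with the slide as a fixed block and 2 as a random block. Those at 4 h (6) numbered 10 with the series matrix and 3 with only the compared groups. At 24 h, scaling to the same median left 6 of 10 in GRalpha and 3 of 6 in E773R. Differences at 4 h (0) numbered 3 without background subtraction, 2 with the series matrix, 2 with either slide block and 1 with the replicate block. Differences at 24 h (5) numbered 1 with median scaling and 8 with the series matrix or the random slide block. Differences at 0 h (4) numbered 11 with the series matrix, 1 with only the compared groups and 7 with either slide block. Leaving out each array in turn gave 1 to 1 calls at 2 h, 5 to 6 at 4 h, 7 to 9 at 24 h in GRalpha, 6 to 8 in GRgamma, 4 to 6 in A477T, 9 to 10 in 30iiB and 4 to 6 in E773R, and 0 to 1, 4 to 7 and 3 to 5 differences at 4, 24 and 0 h. The cause of these changes was not tested, except that only the compared groups means fewer arrays behind the spread. With the replicate block the LAMB3 difference of E773R at 24 h (1.66, adjusted p = 0.036), the LAMC3 difference of E773R at 4 h (-1.47, adjusted p = 0.044), the 24 h LAMA1 response in GRgamma (adjusted p = 0.035) and the 0 h LAMA1 difference of A477T (0.83, adjusted p = 0.037) were also called, as was a LAMB4 difference at background. It changed no other count by over 1.5 times, and 29 of 80 arrays correlated best with their own number. Arrays near background limit LAMB4, ITGB3, the 0 h levels of ITGA1 and members detected on few arrays, such as ITGAX and ITGAD.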

Other observations

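The kept probes of ITGB1 did not give the same answer. The brightest probe, which stood for the gene, had a 24 h response of -0.05 in GRgamma, and a second probe detected on 80 arrays had -0.01. Another probe, detected on 61 arrays, had a 24 h response of 1.64 in GRgamma (adjusted p = 0.014), and 0.81 in GRalpha (adjusted p = 0.32). The count of ITGB1 as not called rests on its brightest probe.

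The endothelial markers VWF and KDR were also called at 24 h, VWF lower in A477T, 30iiB, E773R and GRalpha and KDR higher in 30iiB and GRalpha, while CDH5 was detected on 0 arrays. PECAM1, an endothelial marker detected on 79 arrays, was called in no allele, with 24 h responses between -0.30 in A477T and 0.50 in GRgamma. Their part in the results on laminins and integrins was not tested.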
